A study of Mus musculus with 49 samples.

Results

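Reads that carried several lesions at once were described in a clonal TRIP cell line targeted by Cas9 with 3 guide RNAs. In TRIP, reporters with random barcodes are inserted across the genome, and each read is assigned to its insertion by the barcode. The members were selected on the lesion class that the authors' alignment gave to each read, as reads called complex (a deletion and an insertion in the same read) and reads called deletion or insertion with several separate changes. They numbered 20061 of the 577722 reads that held a barcode of the line. Since the class is itself a measured value, the counts below are a description, with no test. EStTA-PB-B-18 is 1 clone derived from mouse embryonic stem (mES) cells and carries 36 integrated reporters (IRs), all driven by the PGK promoter and each marked by its own barcode. In every group the cells received a Cas9 plasmid with sgRNA1, sgRNA2 or sgRNA3 together with a separate transposase plasmid that carries mCherry, and cells with mCherry were sorted and expanded. There was 1 sample per guide, in which triplicate assays had been merged, so spread is given over IRs or as 95% Wilson intervals. Intervals cover counting error only, since the reads carried no molecular identifiers. An untreated sample of this line was not analysed here, so the reads called wild-type in the same libraries were the only background. The assay reads DNA, and cell type markers could not be looked up in it.

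Cas9 cuts both strands of DNA close to the PAM, a short motif next to the guide's target. In mES cells most such breaks are rejoined by end joining, which leaves a small deletion or insertion at the cut. Another pathway, microhomology-mediated end joining, uses short repeats on both sides of the break and removes the bases between them. A target that is rejoined without a change can be cut again, while a lesion within the target usually ends cutting. How reads with several lesions arose was not tested.

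The sites are shown as they stand in the reads, with the PAM in capitals, because the places of the lesions are counted on them. Positions count from base 1 of the reads of each assay.
sgRNA1 target: CCGccgccgggatcactctcggc
sgRNA2 target: cgccgggatcactctcggcaTGG
sgRNA3 target: agtgtcacctaaatcgtatgCGG
sgRNA1 lies antisense at bases 34 to 53, with its PAM at bases 31 to 33 and its expected cut between bases 36 and 37. sgRNA2 lies sense at bases 35 to 54 of the same stretch, with its PAM at bases 55 to 57 and its expected cut between bases 51 and 52. The targets share 19 bases, and the cuts stand 15 bases apart. sgRNA3 was read from the other end of the amplicon and lies at bases 10 to 29, with its PAM at bases 30 to 32 and its expected cut between bases 26 and 27. The reporter is the same at all IRs, so members at different IRs share their sequence and differ in location. Reads were 80 bases long with sgRNA1 and sgRNA2 and 68 bases long (median) with sgRNA3.

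Complex and multiple lesions were most frequent with sgRNA2. They made up 5281 of 198078 reads with sgRNA1, or 2.67% (2.60 to 2.74%). With sgRNA2 they made up 10236 of 169141 reads, or 6.05% (5.94 to 6.17%). With sgRNA3 they made up 4544 of 210503 reads, or 2.16% (2.097 to 2.222%). The intervals of the 3 guides did not overlap. Relative to mutated reads the shares were 5.22%, 11.4% and 3.28%, with the same order of guides. Reads with a lone deletion or insertion, which are the reads just outside the rule, numbered 95894, 79213 and 134193 with sgRNA1, sgRNA2 and sgRNA3.

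The makeup of the members differed between guides. Complex reads, which hold both a deletion and an insertion, were 65.4% of members with sgRNA1, 52.7% with sgRNA2 and 77.7% with sgRNA3. Reads with several deletions were 31.02%, 42.7% and 14.2% of members in the same order, and reads with several insertions were 3.54%, 4.61% and 8.14%. Over all members, several deletions therefore took the largest part with sgRNA2 and the smallest with sgRNA3. Without reads under the 10th percentile of the alignment score (below), complex reads were 30.2%, 35.5% and 42.6% of members. The lowest share of complex reads was then with sgRNA1. The limit was set within each library and differed between them, so this order does not compare the guides at the same score. A change is called a part below, and the parts of a read are separated by unchanged bases. Exactly 2 parts were found in 53.2% of members with sgRNA1 (2808 reads), in 70.3% with sgRNA2 (7191 reads) and in 40.01% with sgRNA3 (1818 reads). At the other end, 5 or more parts were found in 23.8%, 10.5% and 33.3% of members, and the most in a read were 12, 11 and 11. Among members with 2 parts, a pair of deletions was the most frequent combination with sgRNA1 (53.8%) and sgRNA2 (57.2%). With sgRNA3 it was a deletion with an insertion (58.4%), which rests on 509 reads with an insertion near the end of the reference (below). Without them, 552 of 1309 reads held a deletion with an insertion and 551 a pair of deletions.

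The members held many distinct lesions. With sgRNA1, 5281 members held 3611 distinct lesions, of which 79.7% were seen in a single read. With sgRNA2, 10236 members held 5254 distinct lesions, of which 72.4% were seen in a single read. With sgRNA3, 4544 members held 1975 distinct lesions, and 45.7% were seen in a single read. Lesions confined to 1 IR were 3320, 4681 and 1822 of these. They include the lesions seen in a single read (2878, 3802 and 903), which can lie at 1 IR only. Without molecular identifiers, a lesion read several times at 1 IR cannot be told apart from copies of 1 molecule. Lesions found at 10 or more IRs numbered 20 with sgRNA1, 36 with sgRNA2 and 9 with sgRNA3.

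The parts were small. The bases lost in a member, summed over its deletions, had medians of 6 (quartiles 3 and 15), 6 (3 and 13) and 12 (5 and 34) in the same order of guides. The bases gained, summed over its insertions, had medians of 4 (1 and 10), 2 (1 and 8) and 9 (4 and 13). Without reads under the 10th percentile of the alignment score (below), the medians of bases lost were 5, 6 and 5. The median of bases gained was then 1 with every guide. The score falls with each base lost or gained and with each added part, so such a limit by itself removes larger lesions. It therefore cannot decide whether the larger sizes with sgRNA3 hold. Individual deletions within members had medians of 2, 3 and 4 bases, beside 3, 6 and 5 bases for lone deletions in the same libraries. Deletions of 1 base were 33.0%, 30.8% and 22.5% of the deletions in members, and 7.82%, 12.9% and 8.23% of lone deletions. For insertions the order was the opposite. Insertions of 1 base were 38.8%, 46.2% and 27.5% of the insertions in members, and 78.0%, 78.1% and 94.9% of lone insertions. An insertion of 10 bases or more was found in 9.51% of members with sgRNA1, in 6.55% with sgRNA2 and in 24.3% with sgRNA3. Without the 586 members with sgRNA3 that had an insertion near the end of the reference (below), this share was 20.3% and the medians of bases lost and gained were 10 and 9. Of complex reads, 59.7%, 62.2% and 63.2% had a net loss of bases, and 13.7%, 12.5% and 3.51% kept their length.

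Most members touched the expected cut, although less often than lone lesions did. A part at or within 2 bases of the cut was found in 74.7% of members with sgRNA1, 88.3% with sgRNA2 and 85.8% with sgRNA3. The same was true of 98.5%, 98.2% and 99.7% of lone lesions. Without reads under the 10th percentile of the alignment score (below), the shares of members were 98.9%, 98.7% and 100%. The lower share of members was thus seen only with low-score reads included, and the lone lesions were not limited in this way. The limit itself removes members with more or larger parts. Within 10 bases of the cut the shares of members were 90.9%, 96.4% and 99.3%. Where a member had 2 parts and at least 1 of them was at the cut, the other part lay more often on 1 side. The number of bases on each side of the cut differed between guides and was not allowed for. It was left of the cut, toward the start of the read, in 64.0% of 2358 reads with sgRNA1 and in 82.3% of 6746 reads with sgRNA2. In 3643 of these reads with sgRNA2 the other part was at the sgRNA1 cut, which lies to the left, and they were not set aside. With sgRNA1, 1478 members with any number of parts had a part at the cut and a part within bases 1 to 20, also not set aside. With sgRNA3 it was right of the cut in 69.3% of 1717 reads, and in 56.4% of 1208 once the reads with an insertion at the end of the reference (below) were set aside.

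The spacing of the parts overlapped between the guides, apart from a frequent spacing of 12 or 13 bases with sgRNA2. In members with 2 parts, the median number of unchanged bases between the parts was 14 with sgRNA1 (quartiles 5 and 27), 12 with sgRNA2 (6 and 14) and 7 with sgRNA3 (3 and 34). Without the reads that had an insertion near the end of the reference, the median with sgRNA3 was 4 (3 and 8). With sgRNA2, 29.2% of these reads had exactly 12 or 13 unchanged bases between their parts, beside 2.60% with sgRNA1 and 1.98% with sgRNA3. A spacing of 12 bases alone was found in 1219 reads and a spacing of 13 bases in 879 reads with sgRNA2. Members with 5 or more parts had a median of 6 unchanged bases between neighbours with every guide.

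This spacing recurred in reads with a part at the cut of sgRNA2 and a part at the place where sgRNA1 cuts. Of the 8 lesions named by frequency with sgRNA2 (5 complex, 3 multiple), 6 held a loss within bases 34 to 39. They are drawn on the reference with lost bases in capitals, and, where bases were gained, again after the change with gained bases in capitals.
sgRNA2, 501 reads: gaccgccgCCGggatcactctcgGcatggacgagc
sgRNA2, 112 reads: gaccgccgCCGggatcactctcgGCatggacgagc
sgRNA2, 82 reads: ccgccgggATCACTctcgGcatggacgagc
sgRNA2, 314 reads, lost: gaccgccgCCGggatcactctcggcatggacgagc
sgRNA2, 314 reads, gained: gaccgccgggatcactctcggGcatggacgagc
sgRNA2, 39 reads, lost: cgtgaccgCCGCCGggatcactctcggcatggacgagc
sgRNA2, 39 reads, gained: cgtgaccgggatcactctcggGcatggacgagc
sgRNA2, 36 reads, lost: ggatcactctcGGcatggacgagc
sgRNA2, 36 reads, gained: ggatcactcGtccatggacgagc
sgRNA2, 34 reads, lost: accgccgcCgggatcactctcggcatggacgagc
sgRNA2, 34 reads, gained: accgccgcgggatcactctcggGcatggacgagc
sgRNA2, 33 reads, lost: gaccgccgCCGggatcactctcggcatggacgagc
sgRNA2, 33 reads, gained: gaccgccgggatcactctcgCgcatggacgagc
The most frequent member, with 501 reads at 36 of 36 IRs and at most 40 reads at any IR, lost CCG at bases 37 to 39 and G at base 52, with 12 unchanged bases between. The most frequent complex lesion, with 314 reads at 35 IRs, lost the same CCG and gained a G after base 52. The CCG is a unit of a short CCG repeat, so its place within the repeat is a convention of the alignment.

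Reads with a part within 2 bases of each guide's cut were counted in both libraries. The descriptions of the sgRNA1 and sgRNA2 samples carry the same number and that of sgRNA3 another, and the sources used here do not say what it denotes. Whether cells or amplicons of these samples met the other guide or each other was not tested, so these counts describe the reads alone. With sgRNA2 they numbered 4252, which is 41.5% of members and 2.51% of all reads (2.44 to 2.59%). With sgRNA1 they numbered 945, which is 17.9% of members and 0.477% of all reads (0.448 to 0.508%). These intervals did not overlap. The form of the reads also differed, since 85.7% of these reads had exactly 2 parts with sgRNA2 (3643 reads) and 15.6% with sgRNA1 (147 reads). With sgRNA2 they were found at all 36 IRs, with a mean of 2.49% ± 0.655 of reads (SD over 36 IRs), from 1.202% at BC_36 to 3.87% at BC_34. With sgRNA1 the mean was 0.488% ± 0.136, from 0.256% at BC_21 to 0.788% at BC_33.

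The part at bases 37 to 39 seldom stood alone in the sgRNA2 library. The CCG loss was found together with a part at the sgRNA2 cut in 1618 of the 86843 reads that had a part at that cut, or 1.86%. It was found as the lone lesion in 17 of the 82298 reads with no part at that cut, or 0.0207%. Reads called wild-type were searched for bases 21 to 60 with and without this loss. The unchanged stretch was found in 55726 of 79692, and the stretch with the loss in 0, for which 3 counts, taken as the limit of a count of 0, allow up to 0.00538% of the former. Any lone lesion at the sgRNA1 cut that did not reach the sgRNA2 cut was listed in 133 reads. Wild-type reads without a score were called from bases 41 to 60, as described below, so a lone change left of base 41 would not be listed in them. In these reads the distance from bases 21 to 30 to the window was changed in 24 of 56753, or 0.0423% (0.0284 to 0.0629%).

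The parts at the 2 places were set beside lone lesions that likewise touched only that cut. In the 3643 reads with 2 parts, CCG at bases 37 to 39 was 42.5% of the parts at the sgRNA1 cut, and it was 41.7% of 87870 lone lesions there in the sgRNA1 library. CCGCCG at bases 34 to 39 was 5.41% beside 4.45%, C at base 38 was 5.11% beside 6.46%, and CC at bases 37 and 38 was 3.57% beside 5.09%. An inserted C after base 38 was 2.69% beside 2.33%. The CCG loss led in both, with the other parts far behind it. The parts at the sgRNA2 cut were further from its lone lesions. Loss of G at base 52 was 31.4% of them beside 11.2% of 71533 lone lesions, a gain of G after base 52 was 19.8% beside 6.63%, and loss of GC at bases 52 and 53 was 6.48% beside 2.00%. Insertions of any size were 30.5% of the parts at the sgRNA2 cut and 11.1% of lone lesions there. In the 147 such reads with sgRNA1 the parts differed from lone lesions at both places. CCG was 15.6% of the parts at the sgRNA1 cut, beside 41.7% of lone lesions, and TCTC at bases 47 to 50 was 8.84% of the parts at the sgRNA2 cut, beside 0.741%. A deletion that runs exactly from the cut of sgRNA1 to that of sgRNA2, bases 37 to 51, was a lone lesion in 385 reads with sgRNA1 (0.194%) and in 73 reads with sgRNA2 (0.0432%).

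With sgRNA1 the repeated lesions joined the usual CCG loss to a small change near the start of the read. Of the 8 lesions named by frequency, 6 were of this kind, each with a part of 1 base.
sgRNA1, 54 reads: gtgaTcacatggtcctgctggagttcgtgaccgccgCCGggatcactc
sgRNA1, 42 reads: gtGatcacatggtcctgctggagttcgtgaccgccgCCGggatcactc
sgRNA1, 31 reads: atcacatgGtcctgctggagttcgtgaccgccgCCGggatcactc
sgRNA1, 32 reads, lost: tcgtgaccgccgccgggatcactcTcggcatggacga
sgRNA1, 32 reads, gained: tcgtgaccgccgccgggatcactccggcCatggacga
sgRNA1, 15 reads, lost: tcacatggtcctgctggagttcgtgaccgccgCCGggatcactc
sgRNA1, 15 reads, gained: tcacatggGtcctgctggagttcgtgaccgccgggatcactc
sgRNA1, 11 reads at 10 IRs, lost: tcgtgaccgccGccgggatcactc
sgRNA1, 11 reads at 10 IRs, gained: tcgtgaccCgccccgggatcactc
sgRNA1, 11 reads at 8 IRs, lost: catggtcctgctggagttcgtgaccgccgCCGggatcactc
sgRNA1, 11 reads at 8 IRs, gained: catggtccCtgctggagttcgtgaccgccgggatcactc
sgRNA1, 10 reads, lost: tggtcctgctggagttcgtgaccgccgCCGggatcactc
sgRNA1, 10 reads, gained: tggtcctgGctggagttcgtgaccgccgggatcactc
The reads began with different bases (last section), and the drawings from base 1 show the most frequent start, gt. The most frequent lesion, with 54 reads at 28 IRs, lost T at base 5 beside the CCG, with 31 unchanged bases between. The most frequent complex lesion, with 32 reads at 20 IRs, was of another kind. It lost T at base 49 and gained C after base 53. Both parts lay within 2 bases of the sgRNA2 cut, and neither reached the sgRNA1 cut. The median alignment score of this lesion was 136, and those of the 6 lesions with the CCG loss were from 175 to 179.

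Parts that lie wholly within bases 1 to 20, away from both targets, were found in 40.8% of members with sgRNA1 (2154 reads) and in 17.5% with sgRNA2 (1791 reads), and 59.7% and 63.0% of these parts were 1 base. The oligonucleotide list of the study holds primers of other assays whose ends are nearly the bases at the start of these reads, and the reverse primer it lists for the cell line has another sequence. Whether the start of the reads comes from a primer or from the reporter was not tested. Such changes were also present in reads called wild-type, where they were not listed. Every wild-type read without a score (71791 and 58043 reads) held an unchanged window at the target, bases 31 to 53 with sgRNA1 and bases 41 to 60 with sgRNA2, and no part is listed outside it. The same measure was therefore taken in both classes, as the share of reads in which an unchanged stretch of bases 21 to 30 stood away from its place. With sgRNA1 they were displaced in 0.779% of wild-type reads without a score (0.717 to 0.847%) and in 1.25% of reads with a part at the cut and none over the stretch (1.17 to 1.33%). With sgRNA2 the shares were 0.823% (0.752 to 0.901%) and 1.28% (1.201 to 1.36%). The intervals of both classes did not overlap with either guide. No displaced stretch was found in wild-type reads with a score, which were called wild-type from an alignment without a part, so over all wild-type reads the shares were 0.594% and 0.618%. The displaced reads with a part at the cut made up 18.6% of members with sgRNA1 and 9.82% with sgRNA2. When parts within bases 1 to 20 were not counted, an alternative chosen after seeing the data, the mean share of members over IRs was 1.91% with sgRNA1 and 5.29% with sgRNA2.

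The 8 lesions named by frequency with sgRNA3 were of 3 kinds, into which the other members were not sorted. In 4 of them, found at 4 to 13 IRs, small changes left of the cut and at it were joined.
sgRNA3, 28 reads: gtgtcaccTAaatCGTatgcggccgcga
sgRNA3, 14 reads: gtgtcaccTAAatCGtatgcggccgcga
sgRNA3, 11 reads: gtgtcaccTaaatCGTATgcggccgcga
sgRNA3, 36 reads, lost: cacctaaatcgTATGcggccgcga
sgRNA3, 36 reads, gained: cacctaaatTcgcggccgcga
In these the parts were 2 to 4 bases apart. Over all such reads the other part was more often right of the cut, as given above. In all members with 2 parts and no insertion at the end of the reference, where 1 part was at the cut the other stood a median of 6 bases from it.

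Another kind held an insertion at or after base 114 of the 120 bases of the reference of the sgRNA3 assay, that is, near its end. It took 586 members, or 12.9%, and in 509 of these the only other part was a deletion, with a median of 58 bases (48 to 71). The first 8 bases of the sequencing adaptor were found in 719 members with sgRNA3 (15.8%), of which 375 were among the 586. The most frequent complex lesion with sgRNA3 had such an insertion, with a loss of bases 25 to 76 and 1 base after base 116 in 44 reads at 18 IRs. In the tables of sgRNA1 and sgRNA2 bases past the end of the reference stand in the alignment but are not listed as a part, in 1247 and 3365 mutated reads. Under alternatives chosen after seeing the data, the shares moved with this listing. With insertions at the end not counted as parts, the mean share of members with sgRNA3 was 1.92%. With the unlisted bases counted as an insertion, it was 3.27% with sgRNA1 and 8.00% with sgRNA2.

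The remaining named lesions held 5 parts and had low scores. A set of 3 deletions at bases 18 to 36, 43 to 51 and 65 to 71 recurred in 151 reads at 26 IRs, with at most 16 reads at any IR and a median score of 63.5. It included these 3 named lesions (43, 42 and 36 reads), whose inserted bases were 5 and 4 and stood right of the last loss. Their inserted bases are not shown. Members with 5 or more parts were 1514 reads with sgRNA3, and 17.5% of their aligned bases differed from the reference (median), beside 1.72% in members with 2 parts.

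The alignment score was lower in reads with more parts, which its construction fixes in part. It starts at 30, adds 2 for a matching base, subtracts 2 for a mismatch and subtracts a penalty for every gap that is opened or extended. Each added part lowers it, and so does each base that differs from the reference. In members with 2 parts, 2.56%, 1.30% and 1.72% of aligned bases differed (medians with sgRNA1, sgRNA2 and sgRNA3). With 5 or more parts the medians were 19.1%, 15.7% and 17.5%. The shares of the fall due to gaps and to mismatches were not separated. It also depends on read length and was not compared between sgRNA3 and the other guides. With sgRNA1 the median was 179.5 for lone lesions, 165 for members with 2 parts, 111.8 with 3, 94.5 with 4 and 81.5 with 5 or more. With sgRNA2 the medians were 178.5, 170, 125.5, 116 and 91.5. With sgRNA3 they were 159, 131, 77, 74.5 and 69. Over all members the medians were 125.5, 163.5 and 80, and reads with several deletions or insertions scored higher (167, 170.5 and 131.5) than complex reads (98.5, 132 and 77.5). Members made up 38.2%, 46.1% and 30.7% of the mutated reads under the 10th percentile of the score, which stood at 164, 151.5 and 152. Of the members themselves, 71.7%, 40.2% and 93.2% were under it, beside 6.38%, 6.08% and 7.12% of lone lesions. Without reads under it, the mean share of members over IRs was 0.799% with sgRNA1, 3.81% with sgRNA2 and 0.153% with sgRNA3. The limit was set within each library, so these shares stand at unlike scores and do not rank the guides.

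Every IR held members with every guide. The number of members per IR had medians of 136.5, 282 and 120 with sgRNA1, sgRNA2 and sgRNA3, and lay between 59 and 321, 78 and 633, and 30 and 286. The mean share of reads over 36 IRs was 2.66% ± 0.399 (SD) with sgRNA1, 6.00% ± 1.07 with sgRNA2 and 2.16% ± 0.599 with sgRNA3. Counting error alone would give an SD of 0.227, 0.365 and 0.202 percentage points at these depths, which is below the spread seen with each guide. That SD takes the reads as independent. Copies of 1 molecule could not be told apart, so the excess does not measure differences between IRs. The lowest and highest shares were 1.91 and 4.09%, 2.66 and 7.55%, and 0.917 and 3.56%. Complex reads had means of 1.74% ± 0.255, 3.15% ± 0.633 and 1.68% ± 0.500 over IRs, and several deletions or insertions had means of 0.916% ± 0.252, 2.85% ± 0.616 and 0.480% ± 0.207.

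Within IRs the order of the guides held for sgRNA2. Its share was above that of sgRNA1 at 36 of 36 IRs, by 3.34 ± 0.931 percentage points (mean ± SD), with intervals that did not overlap at 35. It was above that of sgRNA3 at 36 of 36 IRs, by 3.84 ± 0.955 points, with no overlap at 36. sgRNA1 was above sgRNA3 at 28 IRs and below it at 8, by 0.50 ± 0.598 points, and the intervals were apart at 12. When reads with parts at both cuts were not counted, also chosen after seeing the data, the mean share was 3.52% with sgRNA2 and 2.17% with sgRNA1, beside 2.16% with sgRNA3. Under each setting run for all 3 guides, the mean share was higher with sgRNA1 than with sgRNA3. The score limit differed between the libraries, so that setting does not rank them. The closest was 2.26% beside 2.07%, with a part within 5 bases of the cut required. With bases past the end of the reference counted in both assays it was 3.27% beside 2.16%. Different settings for each assay gave no clear order. sgRNA1 had 1.91% with parts within bases 1 to 20 not counted, which was not run for sgRNA3. sgRNA3 had 1.92% with insertions near the end of the reference not counted. Among sgRNA1 reads with each of the 4 usual starts (last section), 2.102 to 2.33% were members, close to the share with sgRNA3. The 3043 sgRNA1 reads that began otherwise held 1005 members.

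The 2 lowest IRs were the same with sgRNA2 and sgRNA3. BC_33, on chromosome 1 at position 88333913 (mm9) and outside any annotated gene, had the highest mean over the 3 guides (4.79%). Its shares for sgRNA1, sgRNA2 and sgRNA3 were 3.37% (2.83 to 4.00%), 7.45% (6.49 to 8.54%) and 3.56% (2.96 to 4.29%), which ranked 2, 2 and 1 of 36. BC_26, which the mapping table lists with no position, had the lowest mean (1.99%). Its share was 2.16% (1.75 to 2.67%), 2.66% (2.15 to 3.28%) and 1.13% (0.833 to 1.54%). BC_30, also listed with no position, was next to it, with 1.91% (1.48 to 2.46%), 3.15% (2.53 to 3.91%) and 0.917% (0.643 to 1.31%). BC_26 and BC_30 did not differ beyond their intervals with any guide. Both were below the mean over IRs by their intervals with every guide except BC_26 with sgRNA1. Over all 36 IRs, intervals lay below the mean at 3, 7 and 11 with sgRNA1, sgRNA2 and sgRNA3, and above it at 3, 10 and 9. Lying off the mean was thus not particular to these IRs. As a share of mutated reads with sgRNA1, however, BC_26 (6.32%) and BC_30 (5.96%) were above the mean over IRs of 5.24%, and with sgRNA2 the lowest IR on that scale was BC_35 (6.59%), below BC_26 (8.37%) and BC_30 (8.97%). With sgRNA3, BC_30 was lowest on that scale too (1.77%), and BC_26 was at 2.31%, beside a mean of 3.29%. Both had low shares of mutated reads: BC_30 had the lowest with sgRNA1 (32.1%) and BC_26 the lowest with sgRNA2 (31.8%) and sgRNA3 (49.0%).

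Other IRs were at an end of the range with 1 guide. BC_8, on chromosome 8 at position 97848836, in an exon of Zfp319 and an intron of Tepp, had the highest share with sgRNA1 (4.09%, 3.60 to 4.64%), where 1.78% of its reads held several deletions or insertions. It ranked 13 with sgRNA2 (6.41%) and 11 with sgRNA3 (2.42%). BC_15, on chromosome 1 at position 179506405 and 125514 bp from the nearest coding gene, Zfp238, was low with sgRNA1 (2.07%, 1.72 to 2.49%) and ranked 16 with sgRNA2 (6.26%). With sgRNA3 it ranked 32 (1.70%, 1.41 to 2.06%), with an interval that lay below the mean over IRs as well, as intervals did at 11 of 36 IRs. BC_34, on chromosome 17 at position 56973009 and 2578 bp from Rfx2, was highest with sgRNA2 (7.55%, 6.60 to 8.61%). BC_34 and BC_33 did not differ beyond their intervals there. BC_34 ranked 4 with sgRNA1 (3.13%), so it was high there too, and 14 with sgRNA3 (2.23%). BC_7, listed with no position, followed BC_33 with sgRNA3 (3.34%, 2.89 to 3.85%), and these intervals overlapped too.

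Across the 36 IRs the shares of members moved together less than the shares of mutated reads did. Pearson's r and Spearman's rho between guides were 0.52 and 0.55 for sgRNA1 and sgRNA2, 0.47 and 0.25 for sgRNA2 and sgRNA3, and 0.34 and 0.28 for sgRNA1 and sgRNA3. For mutated reads r was 0.98, 0.94 and 0.93. With members taken as a share of mutated reads, r and rho were 0.30 and 0.33 for sgRNA1 and sgRNA2, 0.57 and 0.58 for sgRNA2 and sgRNA3, and 0.35 and 0.33 for sgRNA1 and sgRNA3, so the order of the pairs depended on the denominator. The IRs of a guide share a library, and all guides share the clone. Within a guide, the share of members and the share of mutated reads had r = 0.34 with sgRNA1, 0.65 with sgRNA2 and 0.079 with sgRNA3, with rho = 0.35, 0.43 and -0.31. Members are themselves mutated reads, so part of this relation is built in. Without BC_26, the lowest IR with sgRNA2, r was 0.51 over 35 IRs. As a share of mutated reads, members ranged between 3.92 and 8.31%, 6.59 and 13.6%, and 1.77 and 5.52% at the 36 IRs. The relation to the number of reads of the IR was weak (r = 0.069, 0.14 and 0.0036).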

How the data were processed

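The authors took the barcode from each MiSeq read, aligned the rest with the reporter sequence (semi-global) and deposited for each read its lesion class, changed bases, position, alignment and an alignment score. The submitters' processing notes name Bowtie2 2.0 and mm9. The score was deposited for every mutated read and for part of the wild-type reads, and was used as given. Reads of the 36 barcodes of the line were kept (198078, 169141 and 210503 reads). The listed parts were read with Python 3.11.15, pandas 2.3.3 and scipy 1.17.1, tested on simulated lesions, and matched the deposited alignments except for the bases past the end of the reference described above. A deletion is placed at its first lost base and an insertion after the base it follows. Cut sites were placed 3 bases from the PAM on a reference built from the most frequent aligned base at each position. A part was at the cut within 2 bases. Gene annotation came from GENCODE on mm9. Wilson intervals cover counting error only.

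With 1 merged sample per guide no test was made. The members and lists were chosen with earlier results of these data known. Named were, with each guide, the 2 IRs with the highest and the 2 with the lowest share, the IRs highest and lowest in the mean of 3 guides, the 5 most frequent complex lesions and the 3 most frequent multiple ones. Alternatives covered averaging, the denominator, the score, distinct lesions, the place of parts and extreme IRs. Left out were 2 count columns of the mapping table, which come from another study, and the pool samples.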

Additional observations from a re-analysis of the deposited data

How the results depend on the processing

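No paired analysis was possible because each guide has 1 merged sample, with no separate replicates to pair and no test. Guides were set side by side at each IR only as a description. Of 93 alternative values for the 3 shares of reads, 54 lay within 1 SD over IRs of the reported mean and 39 did not. As a share of mutated reads, complex or multiple lesions were 5.24%, 11.3% and 3.29% with sgRNA1, sgRNA2 and sgRNA3, complex lesions 3.45%, 5.98% and 2.56%, and several deletions or insertions 1.79%, 5.34% and 0.733%. Without reads under the 10th percentile of the score, the shares were 0.799%, 3.81% and 0.153%, for complex lesions 0.238%, 1.35% and 0.0648%, and for several deletions or insertions 0.560% with sgRNA1 and 0.0880% with sgRNA3. With each distinct lesion of an IR counted once, by which rare lesions weigh more, they were 36.6%, 41.9% and 25.9% of distinct lesions, complex lesions 24.2%, 23.7% and 21.0%, and several deletions or insertions 12.4%, 18.2% and 4.89%. With a part within 5 bases of the cut required, complex lesions with sgRNA1 were 1.38%. In alternatives chosen after seeing the data, counting the unlisted bases past the reference gave 3.27% with sgRNA1 and 8.00% with sgRNA2, and 2.39% and 5.23% for complex lesions. Not counting parts within bases 1 to 20 gave 1.91% with sgRNA1, 1.43% for complex lesions and 0.479% for several deletions or insertions. Not counting reads with parts at both cuts gave 2.17% with sgRNA1 and 3.52% with sgRNA2, 1.35% and 2.13% for complex lesions, and 1.38% for several deletions or insertions with sgRNA2. sgRNA2 had the highest share of complex or multiple lesions under each setting run for all 3 guides. It was also above sgRNA1 under those run for sgRNA1 and sgRNA2 alone. Among these settings, the score limit differed between the libraries and does not rank the guides. Pooling reads, merging parts with fewer than 3 unchanged bases between them and leaving out the highest or lowest IR moved no share by 1 SD.

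Of 126 alternative values for composition, 61 lay within 1 SD over IRs. The leftmost placement of ambiguous parts lowered the share of members at the sgRNA1 cut from 74.7% to 58.6%. Without reads under the 10th percentile of the score, members with exactly 2 parts rose to 99.0%, 95.9% and 100% and the median spacing of neighbouring parts over all members moved from 7, 8 and 6 bases to 22, 12 and 3, so spacing and composition describe different reads at different score limits.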

Other observations

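Some members held a stretch of the reporter in the opposite orientation. At least 15 bases of the reference on the opposite strand were found in 33 members with sgRNA1 (0.625%), 110 with sgRNA2 (1.07%) and 63 with sgRNA3 (1.39%), and in 7, 91 and 11 reads with a lone lesion (0.0073%, 0.115% and 0.0082%).

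Reads of sgRNA1 and sgRNA2 mostly began with GT, AG, TA or CT, whose meaning is not stated in the sources used here. The share of members was alike for the 4 starts, from 2.102 to 2.33% with sgRNA1 and from 5.50 to 5.74% with sgRNA2. The share of reads with parts at both cuts with sgRNA2 was 2.46 to 2.52%. Reads that began otherwise numbered 3043 and 2608, and 33.0% and 32.5% of them were members (1005 and 847 reads).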
